A study of Homo sapiens with 15 samples.

Results

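The 40 genes described here are the subunits, regulators and target genes of NF-kB. They were listed by gene symbol, and each symbol was matched to 1 Ensembl identifier of the deposited tables, which hold 58735 genes. Of the 40 genes, 34 passed the filter of the test (at least 0.5 FPKM in at least 3 libraries), among 16175 genes tested. The other 6 were nearly silent in these cells, and their fragments are given below. FPKM is the number of sequenced fragments of a gene scaled by its exon length and by the size of the library.

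NF-kB is a family of transcription factors made of pairs of the subunits RELA, RELB, REL, NFKB1 (p105, cut to p50) and NFKB2 (p100, cut to p52). In resting cells IkB proteins hold the pairs in the cytoplasm. In the canonical route receptors, TRAF adaptors and RIPK1 switch on the kinases TAK1 (MAP3K7) and IKK, and IKK marks IkB for destruction. In the noncanonical route the kinase NIK (MAP3K14), kept low by TRAF2, TRAF3 and the cIAP proteins (BIRC2, BIRC3), acts through CHUK to cut p100 to p52. The target genes include chemokines, adhesion molecules and the pathway's own brakes, so that NF-kB limits itself. The RNA was sequenced to describe knockout clones, made for candidate genes from a screen for drug resistance that arises between neighbouring cells, and CARD19, the present symbol of C9orf89, has been linked to BCL10, which acts upstream of IKK.

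HEK293T is a human embryonic kidney line. The 5 groups were Non-target, transduced with a guide RNA without a target in the genome, and 4 CKO clones (CRISPR knockout), each with a guide against the gene it is named for. Where 4 values stand without names, C9orf89-CKO comes first, then MAGI2-CKO, then MLPH-CKO, and RHBDD2-CKO last. All groups carried the lentiCRISPRv2 vector, which brings Cas9 and puromycin resistance, and all were grown in the same medium without drug or leukaemia cells. Each group had 3 libraries, from 3 culture wells of 1 clone made by limiting dilution, so p-values measure the spread between wells, and a difference between clones of the same line cannot be told apart from an effect of the guide. All 4 comparisons with Non-target use the same 3 Non-target libraries. A library held 15517856 to 19489918 fragments on genes, with group medians from 16209432 in RHBDD2-CKO to 19423812 in MAGI2-CKO.

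The labelled cell type was checked first. All 8 HEK293T genes fixed for this check passed the filter, with VIM the most abundant (mean 62.5 FPKM), and they summed to 101.7 to 209.1 FPKM per library. Not every clone kept all of them. NEFM, a neurofilament gene, was 27.2 ± 9.71 FPKM (SD, n = 3) in Non-target, 1.34 ± 0.482 in RHBDD2-CKO and 0.0274 ± 0.0378 in MAGI2-CKO (limma, adjusted p = 2.38e-06 and 1.02e-08). NEFL, another neurofilament gene, was 18.8 ± 1.91 FPKM in Non-target and 0.984 ± 0.131 in RHBDD2-CKO (limma, adjusted p = 3.02e-11). The keratin gene KRT8 was 2.97-fold higher in MLPH-CKO than in Non-target (limma, adjusted p = 2.1e-07) and 1.91-fold lower in C9orf89-CKO (2.51e-05). Of 10 genes of myeloid leukaemia cells, the partner of HEK293T elsewhere in the study, 0 passed the filter. They summed to 0.147 to 0.696 FPKM per library, with SPI1 on top (mean 0.138 FPKM) and MPO at 0 in every library. Among the targeted genes, CARD19 was 6.56 ± 1.04 FPKM (SD, n = 3) in Non-target and 4.32 ± 0.0421 in C9orf89-CKO. RHBDD2 was 33.5 ± 5.50 FPKM in Non-target and 12.4 ± 1.18 in RHBDD2-CKO, but it was as low in MAGI2-CKO (13.8 ± 2.15). MAGI2 had 32 to 68 fragments per library in all groups and MLPH had 0 in every library, so the RNA level checks neither label. A guide cuts DNA and need not lower the RNA.

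Replicate 1 of every group stood apart from replicates 2 and 3. The chi-square per gene between 2 libraries of a group, over genes with at least 10 fragments in the pair, was 14.6 to 24.9 where replicate 1 was one of them and 2.40 to 6.54 where it was not. The main counts of genes are therefore also given below from replicates 2 and 3 only, an alternative chosen after seeing the data. In RNA of a whole culture, a lower level in every cell and fewer cells with the transcript cannot be told apart.

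The promoters of these genes were searched for letters that match the kB element, which NF-kB binds. The consensus searched was GGG, a purine, 2 bases of any kind, 2 pyrimidines and CC, on both strands, in the 300 bases from 250 before to 50 after each RefSeq start (GRCh38.p14). Of the 40 genes, 35 had a promoter in this table, and 16 of these (45.7%) held at least 1 match, against 3619 of 27303 genes (13.3%). Counted by promoter, of which a gene can have several, 19 of 55 (34.5%) held a match, against 3956 of 35114 (11.3%). The list was put together from genes known to be NF-kB targets or regulators, and a match is a description of letters, not a bound site. The matches below, each in capitals with up to 20 bases on either side on the strand of the gene, let the element be compared between roles: the precursor subunits NFKB1 and NFKB2, the inhibitors NFKBIA, NFKBIZ and TNFAIP3, the adaptor BIRC3, and the secreted targets CXCL1, CXCL2 and IL6. These 9 genes were picked with their values known, and 1 match of each is shown. Matches that begin with GG and end with CCC read as the consensus on the opposite strand.

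NFKB1, chr4:102501290-102501339, plus strand: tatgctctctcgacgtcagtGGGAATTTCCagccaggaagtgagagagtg
NFKB2, chr10:102394451-102394500, plus strand: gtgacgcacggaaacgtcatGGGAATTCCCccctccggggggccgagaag
NFKBIA, chr14:35404801-35404850, minus strand: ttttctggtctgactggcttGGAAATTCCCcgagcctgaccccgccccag
TNFAIP3, chr6:137867184-137867233, plus strand: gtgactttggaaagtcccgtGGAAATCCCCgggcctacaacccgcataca
NFKBIZ, chr3:101827747-101827796, plus strand: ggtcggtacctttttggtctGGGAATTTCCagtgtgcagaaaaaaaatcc
BIRC3, chr11:102317265-102317314, plus strand: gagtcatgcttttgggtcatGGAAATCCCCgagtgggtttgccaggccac
CXCL1, chr4:73869294-73869343, plus strand: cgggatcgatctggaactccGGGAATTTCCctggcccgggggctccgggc
CXCL2, chr4:74099244-74099293, minus strand: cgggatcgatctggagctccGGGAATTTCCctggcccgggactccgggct
IL6, chr7:22727107-22727156, plus strand: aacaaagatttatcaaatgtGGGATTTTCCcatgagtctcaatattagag

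The first base of the match lay 49 bases before the start in NFKB1, 107 in NFKB2, 81 in NFKBIA, 55 in TNFAIP3, 223 in NFKBIZ, 199 in BIRC3, 79 in CXCL1, 78 in CXCL2 and 73 in IL6. Read on either strand, 7 members held the same 10 letters, GGGAATTTCC, before the start, namely NFKB1, REL, NFKBIA, NFKBIB, NFKBIZ, CXCL1 and CXCL2. REL, NFKBIB, TNIP1, CYLD, TRAF3, TAB2 and BCL3 also held a match. No match was found in the windows of IKBKE, TRAF5, CHUK or RIPK1, which says only that these letters are not there. The comparison itself was read on log2(FPKM + 0.1) in limma, in 1 fit of all genes and all 15 libraries, with p-values adjusted by the Benjamini-Hochberg method over all genes of a contrast and a threshold of 0.05. On this scale the fold change of a gene with low values is understated.

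Against Non-target, 8 of the 34 tested genes passed the threshold in C9orf89-CKO (4 higher and 4 lower), where 26.0% of all genes did (12.9% higher and 13.1% lower). In MAGI2-CKO 11 passed (5 higher and 6 lower), against 36.1% of all genes (17.0% and 19.1%). In MLPH-CKO 8 passed (4 and 4), against 30.1% (14.5% and 15.5%). In RHBDD2-CKO 11 passed (5 and 6), against 34.1% (17.4% and 16.7%). The members thus passed at 23.5%, 32.4%, 23.5% and 32.4%, near the share of all genes in each clone. With replicates 2 and 3 only, 10, 12, 12 and 14 members passed (29.4%, 35.3%, 35.3% and 41.2%), and the share of all genes rose as well, to 32.4%, 40.4%, 36.9% and 42.0%. Of the 16 members with a kB match, 13 were tested, and 2, 2, 2 and 4 passed. Of the 17 tested members whose promoters held no match, 6, 8, 6 and 6 passed. Beside both small sets stand 26.0%, 36.1%, 30.1% and 34.1% of all genes, and whether members with and without a match differ was not tested. Over the members the median size of the log2 change was 0.15, 0.23, 0.18 and 0.21, and over all genes it was 0.24, 0.29, 0.26 and 0.29. Higher and lower members were thus about equal in number in each clone, and the median log2 change of the members was −0.03, −0.13, −0.06 and 0.06.

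Of the 34 genes, 22 passed in at least 1 clone, against 61.5% of all genes. TRAF5 was higher in all 4 clones (3.39% of all genes were) and IKBKE was lower in all 4 (3.26% were). The other 12 genes passed in no clone. These were RELA and REL, the IkB genes NFKBIB, NFKBIE and BCL3, the brakes TNFAIP3 and CYLD, the TAK1 complex genes MAP3K7 and TAB1, NIK (MAP3K14), TRADD and TRAF2. RIPK1 was the 1 gene that was lower in one clone and higher in another (7.28% of all genes were).

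**Figure D1:**
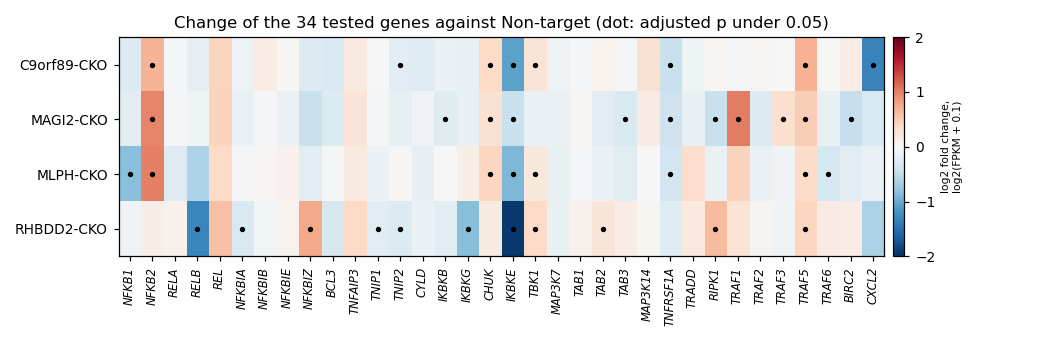
Log2 fold change of the 34 tested genes against Non-target, on log2(FPKM + 0.1), by clone (rows) and gene (columns, ordered by role), with red for higher, blue for lower and a dot where the adjusted p was under 0.05. IKBKE is blue with a dot and TRAF5 red with a dot in each of the 4 rows, and NFKB2 and CHUK are red with a dot in the upper 3.

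Levels in the pathway spread widely. TAB1 (mean of all libraries 19.7 FPKM), NFKBIB (17.8 FPKM) and RELA (17.0 FPKM) were the most abundant members. RELA was the subunit with the highest level in every group. NFKB2 (mean of all libraries 9.93 FPKM) and NFKB1 (6.75 FPKM) followed, in an order that turned between groups (below), with REL (1.08 FPKM) and RELB (0.811 FPKM) far below.

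**Figure D2:**
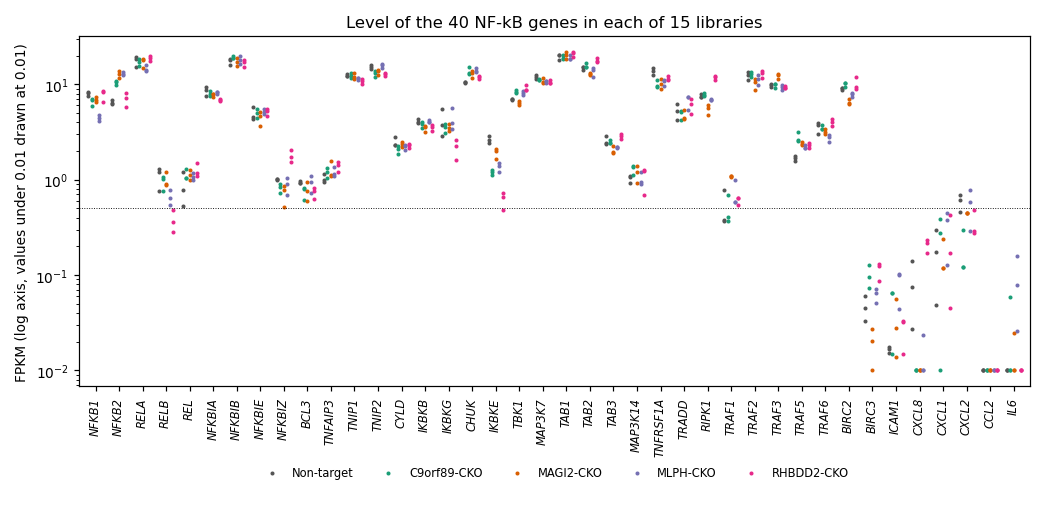
FPKM of the 40 genes (log axis, values under 0.01 drawn at 0.01) in each of the 15 libraries, coloured by group and ordered by role, with a dotted line at the filter of 0.5 FPKM. The 6 genes under the filter and CXCL2 stand at the right, apart from the other 33.

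IKBKE encodes IKK-epsilon, a kinase related to IKK and TBK1 that acts in innate immune signalling. Its fall in RHBDD2-CKO was the largest of any tested member in any clone. The 3 Non-target libraries had 2.43, 2.61 and 2.84 FPKM (148 to 189 fragments). C9orf89-CKO had 1.26, 1.22 and 1.11 FPKM, MAGI2-CKO 2.01, 1.65 and 2.09, MLPH-CKO 1.39, 1.22 and 1.48, and RHBDD2-CKO 0.479, 0.716 and 0.665 (33 to 46 fragments). Every library of every clone lay below every Non-target library. The log2 fold change was −1.93 ± 0.14 (SE) in RHBDD2-CKO, a 3.82-fold fall (limma, adjusted p = 7.89e-07), −1.07 ± 0.14 in C9orf89-CKO (0.000134), −0.90 ± 0.14 in MLPH-CKO (0.000421) and −0.44 ± 0.14 in MAGI2-CKO (0.0277). The clones also differed from each other in IKBKE. It was lower in RHBDD2-CKO than in MLPH-CKO by a log2 change of −1.03 (limma, adjusted p = 9.82e-05), and lower in MLPH-CKO than in MAGI2-CKO by −0.46 (0.0345). MLPH-CKO and C9orf89-CKO differed by 0.17 ± 0.14 (adjusted p = 0.485), which is within the spread. The order of levels was therefore Non-target, MAGI2-CKO, then MLPH-CKO and C9orf89-CKO without a difference between them, then RHBDD2-CKO. The fall in MAGI2-CKO did not hold without MAGI2-CKO replicate 2 (adjusted p = 0.12), Non-target replicate 2 or Non-target replicate 3, and it missed the threshold with no filter (0.0538).

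TRAF5, an adaptor of TNF receptors such as CD40 and LTBR, moved the other way. Its values were 1.55, 1.76 and 1.70 FPKM in Non-target. C9orf89-CKO had 2.56, 3.13 and 2.61 FPKM, MAGI2-CKO 2.38, 2.47 and 2.33, MLPH-CKO 2.13, 2.29 and 2.15, and RHBDD2-CKO 2.44, 2.15 and 2.29. No library of a clone overlapped Non-target. The log2 rise was 0.69 ± 0.09 in C9orf89-CKO (limma, adjusted p = 0.000116), 0.49 ± 0.09 in MAGI2-CKO (0.000876), 0.43 ± 0.09 in RHBDD2-CKO (0.0025) and 0.37 ± 0.09 in MLPH-CKO (0.00728). Among the clones, C9orf89-CKO was above MLPH-CKO (limma, adjusted p = 0.0307) and RHBDD2-CKO (0.0468). MAGI2-CKO, MLPH-CKO and RHBDD2-CKO did not differ past the threshold (adjusted p from 0.387 to 0.642).

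**Figure D3:**
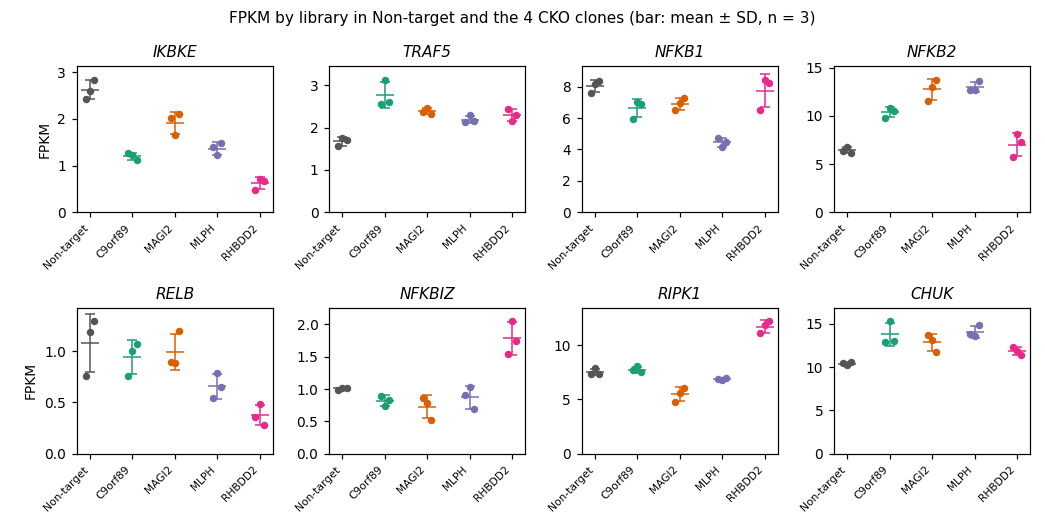
FPKM of 8 members in the 5 groups, 1 point per library, with bars for the mean ± SD (n = 3) and axes that start at 0. IKBKE of all clones lies below Non-target and TRAF5 above it, NFKB2 is high in every clone but RHBDD2-CKO, NFKB1 is low in MLPH-CKO, and NFKBIZ and RIPK1 are high in RHBDD2-CKO.

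Among the subunits, NFKB2 rose in 3 clones. It had 6.32, 6.81 and 6.19 FPKM in Non-target. In C9orf89-CKO it had 9.79, 10.8 and 10.5 FPKM, in MAGI2-CKO 11.6, 13.0 and 13.8, and in MLPH-CKO 12.7, 12.7 and 13.6. RHBDD2-CKO had 5.72, 8.12 and 7.25 FPKM and overlapped Non-target, while the other clones did not. The log2 rise was 0.68 ± 0.11 in C9orf89-CKO (limma, adjusted p = 0.000528), 0.98 ± 0.11 in MAGI2-CKO (1.77e-05) and 1.00 ± 0.11 in MLPH-CKO (2.07e-05). In RHBDD2-CKO the log2 difference from Non-target was 0.11 ± 0.11 (0.46). NFKB2 was lower in RHBDD2-CKO than in C9orf89-CKO by −0.57 (limma, adjusted p = 0.00143), than in MAGI2-CKO by −0.86 (3.41e-05) and than in MLPH-CKO by −0.89 (3.63e-05).

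NFKB1 fell in MLPH-CKO. It had 7.59, 8.17 and 8.37 FPKM in Non-target and 4.74, 4.16 and 4.45 in MLPH-CKO, without overlap. The log2 change was −0.84 ± 0.10, a 1.79-fold fall (limma, adjusted p = 4.89e-05). C9orf89-CKO had 5.96, 7.01 and 6.91 FPKM, MAGI2-CKO 6.50, 6.93 and 7.28, and RHBDD2-CKO 6.52, 8.45 and 8.22, with log2 differences of −0.28, −0.22 and −0.06 that missed the threshold. MLPH-CKO was below each of the other clones in NFKB1 (limma, adjusted p from 6.01e-05 to 0.00231).

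As FPKM is per length, the levels of these precursors can be set side by side. NFKB2 was 0.802 ± 0.0545 times NFKB1 (SD, n = 3) in Non-target and 0.907 ± 0.0475 in RHBDD2-CKO. It was 1.57 ± 0.0634 in C9orf89-CKO, 1.85 ± 0.0591 in MAGI2-CKO and, highest of all, 2.93 ± 0.226 in MLPH-CKO. The ratio was chosen after its values were seen. Its libraries did not overlap Non-target in any clone, and the two-sided exact permutation p was 0.1 in each, the smallest that 3 libraries against 3 allow.

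RELA, the subunit that carries most canonical activity, passed in no clone. Non-target had 15.1, 18.5 and 19.2 FPKM, C9orf89-CKO 15.7, 17.0 and 18.5, MAGI2-CKO 14.9, 17.8 and 18.5, MLPH-CKO 14.0, 16.0 and 13.8, and RHBDD2-CKO 17.6, 19.7 and 18.7. All clones overlapped Non-target. RELA was higher in RHBDD2-CKO than in MLPH-CKO by a log2 difference of 0.36 (limma, adjusted p = 0.0192).

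RELB, the partner of p52 in the noncanonical route, was 0.759, 1.19 and 1.30 FPKM in Non-target. It was 0.758, 1.01 and 1.07 in C9orf89-CKO, 0.900, 0.883 and 1.20 in MAGI2-CKO, 0.541, 0.787 and 0.647 in MLPH-CKO, and 0.363, 0.486 and 0.284 in RHBDD2-CKO (14 to 25 fragments). RHBDD2-CKO did not overlap any other group. RELB fell there by a log2 change of −1.30 ± 0.23 (limma, adjusted p = 0.000925), and it was also lower than in MLPH-CKO, MAGI2-CKO and C9orf89-CKO (0.0351, 0.001 and 0.00235).

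REL, the subunit best known from lymphocytes, had 1.19, 0.535 and 0.779 FPKM in Non-target. The clones had 1.30, 1.05 and 1.03 FPKM (C9orf89-CKO), 1.26, 1.12 and 1.00 (MAGI2-CKO), 1.17, 0.991 and 1.06 (MLPH-CKO), and 1.49, 1.08 and 1.18 (RHBDD2-CKO). Every clone overlapped Non-target, in which replicate 1 was far above the other two, and no difference passed (limma, adjusted p from 0.056 to 0.208).

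Of the 5 IkB genes, 2 passed in RHBDD2-CKO, where 34.1% of all genes did, and 0 in the other clones, where 26.0% to 36.1% did. Whether these counts differ between clones was not tested. NFKBIA, the IkB-alpha gene that NF-kB induces within minutes to shut itself off, had 7.51, 8.63 and 9.39 FPKM in Non-target. RHBDD2-CKO had 7.05, 6.79 and 6.71 FPKM, all below Non-target. C9orf89-CKO had 7.48, 7.84 and 8.42, MAGI2-CKO 7.38, 8.00 and 7.88, and MLPH-CKO 8.35, 7.94 and 8.37, and these overlapped it. The fall in RHBDD2-CKO was −0.30 ± 0.08 on the log2 scale (limma, adjusted p = 0.00862), and it missed the threshold with only the 6 libraries of the 2 groups in the fit (0.06).

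NFKBIZ encodes IkB-zeta, a nuclear IkB that helps NF-kB switch on a subset of its targets. Its values were 0.992, 1.02 and 1.01 FPKM in Non-target and 1.55, 2.05 and 1.75 in RHBDD2-CKO. C9orf89-CKO had 0.893, 0.734 and 0.834, MAGI2-CKO 0.864, 0.786 and 0.521, and MLPH-CKO 0.900, 1.03 and 0.684. RHBDD2-CKO lay above every other library. NFKBIZ rose there by 0.76 ± 0.18 on the log2 scale (limma, adjusted p = 0.00663) and was higher than in MAGI2-CKO (0.000173), C9orf89-CKO (0.000938) and MLPH-CKO (0.00115). NFKBIB (group means 16.9 to 19.4 FPKM), NFKBIE (4.50 to 5.15 FPKM) and BCL3 (0.736 to 0.935 FPKM), the other members of this family on the list, passed in no clone.

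Of the 4 brakes on the pathway, 2 fell in RHBDD2-CKO, where 16.7% of all genes did, and 1 fell in C9orf89-CKO, where 13.1% did. In MAGI2-CKO and MLPH-CKO 0 passed in either direction, where 36.1% and 30.1% of all genes did. Whether these counts differ between clones was not tested. TNFAIP3 (A20, which edits ubiquitin on RIPK1) had 1.13, 0.946 and 1.00 FPKM in Non-target. It had 1.21, 1.34 and 1.03 in C9orf89-CKO, 1.09, 1.11 and 1.58 in MAGI2-CKO, 1.08, 1.36 and 1.14 in MLPH-CKO, and 1.20, 1.44 and 1.52 in RHBDD2-CKO. The RHBDD2-CKO libraries lay above Non-target, and the log2 difference of 0.39 ± 0.16 missed the threshold (limma, adjusted p = 0.0721). TNIP1 and TNIP2, which bind A20, fell slightly in RHBDD2-CKO, by −0.20 ± 0.07 (limma, adjusted p = 0.0342) and −0.27 ± 0.07 (0.0106). TNIP2 also fell in C9orf89-CKO by −0.23 ± 0.07 (0.0289). The TNIP1 call and the TNIP2 call in C9orf89-CKO each failed in 4 of the 15 fits that left out 1 library. CYLD, a deubiquitinase, had group means of 2.07 to 2.48 FPKM.

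Among the kinases, CHUK (IKK-alpha, the kinase of the noncanonical route) rose in 3 clones. It had 10.5, 10.2 and 10.6 FPKM in Non-target. C9orf89-CKO had 12.9, 15.3 and 13.1 FPKM, MAGI2-CKO 13.7, 13.1 and 11.8, MLPH-CKO 13.8, 13.6 and 14.8, and RHBDD2-CKO 12.4, 11.9 and 11.4. Every clone lay above Non-target. The log2 rise was 0.40 ± 0.08 in C9orf89-CKO (limma, adjusted p = 0.00197), 0.30 ± 0.08 in MAGI2-CKO (0.00757) and 0.43 ± 0.08 in MLPH-CKO (0.000936), and in RHBDD2-CKO the difference was 0.19 ± 0.08 (0.0728). With replicates 2 and 3 only, the rise in MAGI2-CKO missed the threshold (0.0517).

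IKBKB (IKK-beta), the main kinase of the canonical route, fell in MAGI2-CKO from 4.10 ± 0.204 to 3.46 ± 0.292 FPKM (SD, n = 3; limma, adjusted p = 0.0353), a call that did not hold in 4 of the 15 fits that left out 1 library. IKBKG (NEMO), the scaffold of IKK, had 2.86, 5.47 and 3.73 FPKM in Non-target and 1.61, 2.24 and 2.60 in RHBDD2-CKO. C9orf89-CKO had 3.09, 3.60 and 3.84, MAGI2-CKO 3.26, 3.84 and 3.46, and MLPH-CKO 3.37, 3.94 and 5.63. RHBDD2-CKO lay below all other libraries. The log2 fall was −0.85 ± 0.24 (limma, adjusted p = 0.014), and without Non-target replicate 2, the highest of its group, it missed the threshold (0.0665), as it did without RHBDD2-CKO replicate 1. IKBKG has a near-identical partial copy nearby, so its counts are uncertain. In all, 15 of the 40 genes overlap a gene on the opposite strand, IKBKE, CHUK, TBK1 and RIPK1 among them, and whether the counting used strand is not given in the sources used here.

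TBK1, the relative of IKBKE that drives interferon genes, went up where IKBKE went down in 3 clones. It rose by 0.26 ± 0.06 in C9orf89-CKO (limma, adjusted p = 0.0105), 0.23 ± 0.06 in MLPH-CKO (0.0175) and 0.38 ± 0.06 in RHBDD2-CKO (0.000614), from 6.97 ± 0.166 FPKM in Non-target to 8.35, 8.18 and 9.14. The rise in MLPH-CKO was lost without MLPH-CKO replicate 1 (adjusted p = 0.0611) or Non-target replicate 2. In MAGI2-CKO it was 6.37 ± 0.292 FPKM (0.139), lower than in each of the other clones (limma, adjusted p from 3.7e-05 to 0.00156). Of the TAK1 complex, TAB2 rose in RHBDD2-CKO (0.26 ± 0.08, limma, adjusted p = 0.0232) and TAB3 fell in MAGI2-CKO (−0.31 ± 0.09, 0.0174). Both are ubiquitin-binding partners of TAK1, and both calls failed in 3 of the 15 fits that left out 1 library. TAK1 itself (MAP3K7, 10.7 to 11.9 FPKM by group), TAB1 (19.1 to 20.7 FPKM) and NIK (MAP3K14, 1.02 to 1.29 FPKM) passed in no clone.

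Of the receptor and adaptor genes, TNFRSF1A, the main receptor of TNF, had 12.4, 13.7 and 14.7 FPKM in Non-target. C9orf89-CKO had 9.51, 11.1 and 9.32, MAGI2-CKO 8.95, 10.2 and 11.5, MLPH-CKO 9.55, 11.1 and 10.8, and RHBDD2-CKO 11.0, 12.3 and 11.3. All clones lay below Non-target. The log2 fall was −0.44 ± 0.10 in C9orf89-CKO (limma, adjusted p = 0.00642), −0.42 ± 0.10 in MAGI2-CKO (0.0063) and −0.38 ± 0.10 in MLPH-CKO (0.0139). In RHBDD2-CKO the difference of −0.24 ± 0.10 missed the threshold (0.0911), and no pair of clones differed past it. Without Non-target replicate 3 or MLPH-CKO replicate 1 the call in MLPH-CKO was lost (highest adjusted p 0.0613).

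RIPK1, the kinase that TNFRSF1A recruits to start both NF-kB and cell death signalling, separated RHBDD2-CKO from MAGI2-CKO. Non-target had 7.32, 7.86 and 7.37 FPKM, RHBDD2-CKO 11.1, 11.8 and 12.2, and MAGI2-CKO 4.77, 5.63 and 6.07. C9orf89-CKO had 7.67, 8.07 and 7.53 and MLPH-CKO 6.85, 6.82 and 6.96. RHBDD2-CKO lay above and MAGI2-CKO below every other library. RIPK1 rose in RHBDD2-CKO by 0.63 ± 0.08 (limma, adjusted p = 5.29e-05) and fell in MAGI2-CKO by −0.45 ± 0.08 (0.000583). Between these clones the log2 difference was 1.09 (limma, adjusted p = 3.05e-07).

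BIRC2 (cIAP1, a ubiquitin ligase that keeps NIK low) had 9.14, 8.81 and 9.19 FPKM in Non-target and 6.98, 6.33 and 6.26 in MAGI2-CKO. C9orf89-CKO had 9.45, 10.3 and 10.2, MLPH-CKO 7.84, 7.45 and 8.05, and RHBDD2-CKO 12.1, 8.87 and 9.43. MAGI2-CKO lay below all other libraries, with a log2 fall of −0.47 ± 0.10 (limma, adjusted p = 0.00194).

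Other TRAF genes passed in single clones. TRAF1, itself a target of NF-kB, rose in MAGI2-CKO from 0.511 ± 0.235 to 1.09 ± 0.0126 FPKM (SD, n = 3), a log2 change of 1.03 ± 0.28 (limma, adjusted p = 0.0114). TRAF3, which like BIRC2 restrains NIK, rose in MAGI2-CKO from 9.78 ± 0.422 to 12.2 ± 0.750 FPKM (0.32 ± 0.07, adjusted p = 0.00218) and was higher there than in each of the other clones. TRAF6, the adaptor of Toll-like and IL-1 receptors, fell in MLPH-CKO from 3.57 ± 0.506 to 2.75 ± 0.240 FPKM (−0.36 ± 0.11, adjusted p = 0.0242), a call lost in 3 of the 15 fits without 1 library. TRAF2 (10.3 to 12.9 FPKM by group) and TRADD (4.70 to 6.71 FPKM), which bridge TNFRSF1A to RIPK1, passed in no clone.

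The 6 target genes on the list and BIRC3 were close to silent in all groups. The 6 targets together had 66 fragments in Non-target, 97 in MLPH-CKO, 70 in RHBDD2-CKO, 59 in MAGI2-CKO and 40 in C9orf89-CKO, summed over 3 libraries. CXCL2, a neutrophil chemokine, was the 1 target that passed the filter, through 2 libraries of Non-target and 2 of MLPH-CKO above 0.5 FPKM. It had 11, 16 and 16 fragments in Non-target, 3, 8 and 3 in C9orf89-CKO, 13, 13 and 13 in MAGI2-CKO, 8, 22 and 16 in MLPH-CKO, and 13, 7 and 7 in RHBDD2-CKO. In FPKM these were 0.457, 0.689 and 0.608 in Non-target and 0.121, 0.296 and 0.120 in C9orf89-CKO, which did not overlap. CXCL2 fell in C9orf89-CKO by −1.34 ± 0.33 on the log2 scale (limma, adjusted p = 0.00954). C9orf89-CKO was also below MAGI2-CKO (0.0407) and MLPH-CKO (0.0283), and a gene that reached the filter through Non-target and MLPH-CKO could more easily differ from them.

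CXCL8 (interleukin-8) had 1, 5 and 3 fragments in Non-target, 0 in every library of C9orf89-CKO and MAGI2-CKO, 0, 1 and 0 in MLPH-CKO, and 7, 9 and 8 in RHBDD2-CKO. RHBDD2-CKO was thus above every other library, at 0.169, 0.234 and 0.216 FPKM. With no filter on low values its log2 difference from Non-target was 0.80 (limma, adjusted p = 0.0159). No test is given for the other clones, whose libraries held 0 or 1 fragment, since the size of such a difference is set by the pseudocount. A count of 0 allows up to 3 fragments, which for CXCL8 is 0.0676 to 0.0852 FPKM by library.

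CXCL1 had 1, 6 and 4 fragments in Non-target, 0, 9 and 6 in C9orf89-CKO, 3, 6 and 3 in MAGI2-CKO, 9, 11 and 3 in MLPH-CKO, and 4, 1 and 9 in RHBDD2-CKO, and all groups overlapped. ICAM1, an adhesion molecule for leukocytes, had 1 fragment in each Non-target library. It had 4, 1 and 4 in C9orf89-CKO, 2, 4 and 1 in MAGI2-CKO, 3, 7 and 7 in MLPH-CKO, and 1, 2 and 2 in RHBDD2-CKO. MLPH-CKO was the clone that did not overlap Non-target in ICAM1. With no filter ICAM1 was higher there by 0.63 (limma, adjusted p = 0.0435). With 1 fragment per Non-target library the size of the difference depends on the pseudocount. IL6 had 6, 1 and 3 fragments in MLPH-CKO, 2, 0 and 0 in C9orf89-CKO, 1, 0 and 0 in MAGI2-CKO, and 0 in every library of Non-target and RHBDD2-CKO. With no filter IL6 was higher in MLPH-CKO than in Non-target by 0.85 (limma, adjusted p = 0.0303), a size that also depends on the pseudocount. CCL2, a monocyte chemokine, had 0 fragments in all 15 libraries, which allows a level of up to 0.0774 to 0.0976 FPKM by library.

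BIRC3 (cIAP2), a target and an adaptor in 1, had 4, 7 and 6 fragments in Non-target and 16, 10 and 12 in C9orf89-CKO. MAGI2-CKO had 4, 3 and 1, MLPH-CKO 9, 10 and 7, and RHBDD2-CKO 17, 11 and 16. C9orf89-CKO and RHBDD2-CKO lay above Non-target and MAGI2-CKO did not lie above it. With no filter, RHBDD2-CKO differed from Non-target by 0.55 (limma, adjusted p = 0.0405) and C9orf89-CKO by 0.44 (0.115). No library had more than 0.131 FPKM of BIRC3, near the pseudocount of 0.1, so these sizes depend on it as well. The calls of these 6 genes with no filter were not tested at other pseudocounts.

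The CKO clones also differed from each other. Over the 5 groups 20 of the 34 genes differed (58.8%, against 61.0% of all genes), and with replicates 2 and 3 only it was 23. RHBDD2-CKO and MLPH-CKO differed in 15 members (44.1%, against 37.0% of all genes), and RHBDD2-CKO and MAGI2-CKO in 14 (41.2%, against 41.6%). RHBDD2-CKO and C9orf89-CKO differed in 7 (20.6%, against 29.3%), and MAGI2-CKO and C9orf89-CKO in 9 (26.5%, against 22.5%). MLPH-CKO and C9orf89-CKO differed in 6 (17.6%, against 14.2%), and MLPH-CKO and MAGI2-CKO in 5 (14.7%, against 21.2%). The shares of members lay on both sides of those of all genes, and whether they differ was not tested. With replicates 2 and 3 only the counts of members were 15, 13, 10, 9, 5 and 7. For pairs of clones, the shares of all genes at this and other settings are not given here. The count for MLPH-CKO and C9orf89-CKO fell to 2 or 3 without any 1 library of either clone, and that for MAGI2-CKO and C9orf89-CKO fell to 5 without C9orf89-CKO replicate 3. With the replicate number as a block it was 12 for RHBDD2-CKO and C9orf89-CKO and 8 for MLPH-CKO and MAGI2-CKO, and the latter was 3 with only the 6 libraries contrasted. IKBKE and RIPK1 each differed in 5 of the 6 pairs of clones and BIRC2 in 4.

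Genes close together on a chromosome often moved together in these clones, so the neighbours of each member were read beside it. The value is the median log2 fold change of the 20 nearest tested genes, and its part in each result was not tested. NFKB2 (chr10:102394110-102402529) and CHUK (chr10:100188298-100229619) lie on the same arm of chromosome 10. The neighbours of NFKB2 had medians of 0.46 in MLPH-CKO, 0.51 in MAGI2-CKO and 0.35 in C9orf89-CKO, with 14, 13 and 11 of the 20 past the threshold and higher. In RHBDD2-CKO their median was 0.13, with 3 higher and 3 lower. Those of CHUK had medians of 0.45, 0.38, 0.39 and 0.20 in the 4 clones, against 0.40, 0.30, 0.43 and 0.19 for CHUK itself.

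NFKB1 (chr4:102501329-102617302) fell by 0.84 in MLPH-CKO, where its 20 neighbours had a median of −0.61 and 14 of them were lower. UBE2D3, a ubiquitin-conjugating enzyme gene beside it, fell there by 0.96 (limma, adjusted p = 1.57e-06). RIPK1 (chr6:3063991-3115187) had neighbours with medians of 0.37 in RHBDD2-CKO (10 higher and 1 lower) and −0.32 in MAGI2-CKO (2 higher and 9 lower). Those of BIRC2 had a median of −0.57 in MAGI2-CKO (13 lower), and those of IKBKG −0.44 in RHBDD2-CKO (12 lower). For TRAF3 the neighbours in MAGI2-CKO had a median of 0.33, next to 0.32 for the gene.

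The neighbours of TRAF6 in MLPH-CKO had a median of −0.32 (8 lower), beside −0.36 for the gene. Those of NFKBIZ in RHBDD2-CKO had a median of 0.14 (7 higher), beside 0.76. For some other members the neighbours did not share the change. IKBKE (chr1:206470476-206496889) had neighbours with medians of 0.22, 0.01, 0.06 and −0.03 in the 4 clones. TRAF5 (chr1:211326615-211374946), on the same chromosome, had neighbours at −0.20, −0.16, −0.05 and −0.07, with the sign opposite to its own rise. Those of RELB in RHBDD2-CKO were at −0.05, of TRAF1 in MAGI2-CKO at −0.01, of CXCL2 in C9orf89-CKO at 0.01, and of TNFRSF1A at 0.03, 0.04 and −0.0042 in the 3 clones where it fell. Over the 38 calls of members, 26 (68.4%) had neighbours with a median of the same sign, against 73.0% of the calls of all genes. A median of at least 0.2 of the same sign stood beside 13 of the 38 (34.2%), against 36.2% of the calls of all genes.

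**Figure D4:**
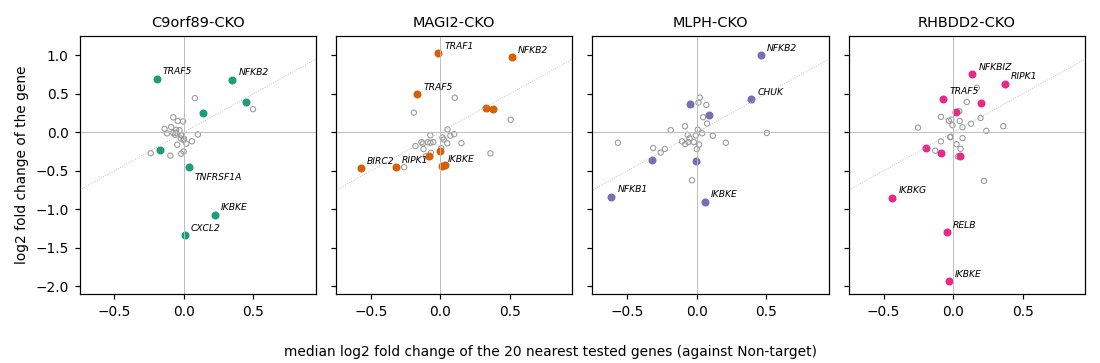
Log2 fold change of each of the 34 tested members (vertical axis) against the median log2 fold change of its 20 nearest tested genes (horizontal axis) in the 4 clones, filled where the member passed the threshold and named where its change was also at least 0.42, with a dotted line of equality. NFKB2, CHUK, NFKB1, RIPK1, BIRC2 and IKBKG lie to the side of their neighbours' change, and IKBKE, TRAF5, RELB, TRAF1 and CXCL2 lie near or across the vertical line at 0.

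Around the 40 genes, 99 other genes of the pathway were read from 4 lists, and 70 of them were tested. Past the threshold were 30 in MLPH-CKO (42.9%, 14 higher and 16 lower), 29 in RHBDD2-CKO (41.4%, 10 and 19), 26 in MAGI2-CKO (37.1%, 12 and 14) and 20 in C9orf89-CKO (28.6%, 10 and 10). These shares lie beside 30.1%, 34.1%, 36.1% and 26.0% of all genes. In MLPH-CKO the count was 19 without MLPH-CKO replicate 3. With replicates 2 and 3 only, 32, 33, 25 and 26 passed in the clones as just listed.

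Of 28 other receptors and Toll-like or IL-1 adaptors, 20 were tested. In the 4 clones 4, 1, 5 and 3 were higher, where 12.9%, 17.0%, 14.5% and 17.4% of all genes were. Lower were 3, 6, 4 and 6, where 13.1%, 19.1%, 15.5% and 16.7% of all genes were. These shares of all genes stand beside the counts of the lists below too, and whether any list differs from them was not tested. CD40, a receptor that signals through TRAF adaptors, TRAF5 among them, rose in all 4. It went from 0.838, 0.997 and 1.29 FPKM in Non-target to 2.49, 2.31 and 2.83 in C9orf89-CKO, 4.40, 4.71 and 5.19 in MAGI2-CKO, 2.97, 2.96 and 2.74 in MLPH-CKO, and 2.35, 2.22 and 2.04 in RHBDD2-CKO. No library of a clone overlapped Non-target, and the log2 rise was 1.23, 2.11, 1.41 and 1.03 (limma, adjusted p from 1.25e-07 to 6.29e-05).

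EDA2R, a receptor of ectodysplasin, fell in all 4 clones, from 4.21 ± 0.298 FPKM (SD, n = 3) in Non-target to 2.17 ± 0.214 in MLPH-CKO and to 0.0225, 0.0719 and 0.165 in C9orf89-CKO, MAGI2-CKO and RHBDD2-CKO (limma, adjusted p from 3.34e-08 to 0.0163). EDA2R reached the filter through Non-target and MLPH-CKO, so a fall in the other clones was favoured. MYD88, the adaptor through which most Toll-like and IL-1 receptors reach IKK, had 2.86, 2.59 and 3.03 FPKM in Non-target and 0.110, 0.104 and 0.139 in RHBDD2-CKO (183, 160 and 212 against 8, 7 and 9 fragments). The log2 fall was −3.75 (limma, adjusted p = 8.38e-10), and MYD88 also fell in MAGI2-CKO by −0.52 (0.00737) and in MLPH-CKO by −0.41 (0.0283). The neighbours of MYD88 had medians of −0.26 in RHBDD2-CKO, −0.29 in MAGI2-CKO (11 lower) and −0.22 in MLPH-CKO (10 lower). Those of CD40 had medians of −0.08 to 0.09 in the 4 clones. NGFR, the low-affinity neurotrophin receptor, rose in C9orf89-CKO and MLPH-CKO, from 0.293 FPKM to 0.584 and 0.730 (limma, adjusted p = 0.0407 and 0.00931). The call in C9orf89-CKO was lost in 8 of the 15 fits that left out 1 library. NGFR was under 0.5 FPKM in all libraries of Non-target and passed the filter mainly through these clones, so that a rise there was favoured, and its neighbours in both had medians of 0.21 and 0.23.

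Of 25 genes of ubiquitin ligases and deubiquitinases, 23 were tested, and 2, 4, 3 and 5 were higher and 3, 6, 8 and 6 lower in the 4 clones. ZRANB1, a deubiquitinase, rose in all 4 by 0.39 to 0.67, and BTRC, which carries marked IkB to the ubiquitin ligase, rose in MLPH-CKO, MAGI2-CKO and C9orf89-CKO by 0.29, 0.39 and 0.58. Both lie on chromosome 10, and their neighbours in these 3 clones had medians of 0.24 to 0.45. In RHBDD2-CKO, where ZRANB1 rose by 0.39, its neighbours had a median of 0.02 (3 higher and 3 lower). COMMD1, a promoter of RELA turnover, fell in C9orf89-CKO, MLPH-CKO and RHBDD2-CKO by −0.60, −0.45 and −0.53, and XIAP fell in MLPH-CKO and RHBDD2-CKO by −0.38 and −0.69, where its neighbours had medians of −0.09 and −0.76.

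The genes around CARD19, BCL10 and MALT1 numbered 12, of which 10 were tested, with 2, 2, 1 and 1 higher and 3, 1, 1 and 3 lower. CARD19 fell in C9orf89-CKO, the clone made against it, from 5.70, 7.71 and 6.27 FPKM in Non-target to 4.34, 4.27 and 4.34 (−0.58, limma, adjusted p = 0.000977). It fell in RHBDD2-CKO too, to 4.52, 5.17 and 4.69 FPKM (−0.44, 0.00489). BCL10, the partner through which CARD proteins reach MALT1 and IKK, had 3.26, 3.47 and 4.04 FPKM in Non-target and 2.74, 3.02 and 2.79 in C9orf89-CKO. That fall of −0.32 (limma, adjusted p = 0.0365) was lost in 4 of the 15 fits that left out 1 library and with replicates 2 and 3 only. MALT1, a protease that cuts A20 and CYLD, rose in RHBDD2-CKO from 1.78 ± 0.202 to 2.22 ± 0.188 FPKM (0.30, limma, adjusted p = 0.048), a call lost in 11 of the 15.

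In the same list PRKCD, a protein kinase C, fell in all 4 clones by −0.34 to −0.77, with neighbours at −0.15 to −0.35. PRKCQ, the kinase that starts this route in T cells, rose in C9orf89-CKO and MAGI2-CKO by 0.66 and 0.63, with neighbours at 0.41 (12 higher) and 0.30 (8 higher). CARD9, the adaptor of fungal receptors in myeloid cells, rose in MAGI2-CKO and MLPH-CKO by 0.94 and 0.97, from 0.251 FPKM in Non-target, with neighbours at 0.02 and −0.12. CARD9 too was under 0.5 FPKM in every Non-target library and passed the filter mainly through these 2 clones, which favours a rise in them. In C9orf89-CKO, the clone that bears on CARD19, 1 of the 5 subunit genes (NFKB2) and 0 of the 5 IkB genes passed, where 26.0% of all genes did. Its 8 calls among the members were NFKB2, CHUK, TBK1 and TRAF5 (higher) and IKBKE, TNIP2, TNFRSF1A and CXCL2 (lower). CXCL2 reached the filter through Non-target and MLPH-CKO, so a fall in C9orf89-CKO was favoured.

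Of 34 other target genes of NF-kB, 17 were tested, with 2, 5, 5 and 1 higher and 1, 1, 3 and 4 lower. GADD45B, a stress protein, rose from 4.12 ± 0.490 FPKM in Non-target to 7.84 in MLPH-CKO, 8.22 in MAGI2-CKO and 8.25 in C9orf89-CKO (limma, adjusted p from 0.00024 to 0.000566) and was 4.17 in RHBDD2-CKO. HLA-B, a class I antigen-presenting gene, rose in the same 3 clones from 29.4 ± 3.92 FPKM to 61.1, 55.1 and 50.1 (limma, adjusted p from 2.73e-06 to 4.28e-05) and was 31.5 in RHBDD2-CKO. The neighbours in these clones had medians of −0.08 to 0.01 for GADD45B and 0.12 to 0.22 for HLA-B. CD83, a surface protein of activated immune cells, fell in these 3 by −0.45, −0.47 and −0.41, with neighbours at −0.31, −0.47 and −0.30, and was 5.75 FPKM in RHBDD2-CKO beside 5.35 in Non-target, with neighbours there at 0.65 (13 higher and 1 lower).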

How the data were processed

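RNA of HEK293T cells was sequenced in 15 libraries, 5 groups of 3, grouped by the deposited labels. The authors deposited 1 table per library, and its values are FPKM, read from the values since neither tables nor labels name the unit: times a gene's GENCODE v29 (GRCh38) exon length and a constant of the library, 100% of values came out as whole fragments, within 0.05. The submitters' processing notes list HISAT2 2.0.5, featureCounts 1.5.0-p3 and DESeq2. The genome build and annotation are not given in the sources used here. An exon length taken from another annotation would scale FPKM of a gene equally in all libraries.

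Differences were tested with limma 3.58.1 (R 4.3.3), as lmFit, contrasts and eBayes with a trend on log2(FPKM + 0.1), in genes that reached 0.5 FPKM in 3 or more libraries. Limits from counts of 0 (3 fragments) cover counting error only. Python 3.11.15 with numpy 2.4.6, pandas 2.3.3 and matplotlib 3.10.9 did the rest. Promoters came from RefSeq (GRCh38.p14).

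The members and the lists of other genes and markers were chosen with earlier results of these data known, so they are no independent evidence. SOD2, with 2 identifiers, was left out. Every library's value is given for members past the threshold in all 4 clones in the same direction, for the 2 largest rises and the 2 largest falls in each clone (past the threshold, no overlap with Non-target, mean of at least 1 FPKM), for the subunits, NFKBIA, TNFAIP3 and the 6 target genes. Of each other list, the 2 largest mean rises and falls among genes past the threshold in at least 2 clones are named, with CARD19, BCL10 and MALT1. UBE2D3 was added after its values were seen.

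Alternatives were no filter, a mean of at least 1 FPKM, pseudocounts of 1 and 0.01, quantile normalization, no trend, only the 6 libraries contrasted, the replicate number as a block, limma voom on the recovered fragments and each library left out in turn.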

Additional observations from a re-analysis of the deposited data

How the results depend on the processing

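Of the 38 calls of members against Non-target, 26 held in all 25 alternatives in which the gene was tested, and 0 changed sign. The other 12 were lost in at least 1: IKBKB, IKBKE, TAB3 and CHUK in MAGI2-CKO, IKBKG, NFKBIA, TAB2 and TNIP1 in RHBDD2-CKO, TBK1, TNFRSF1A and TRAF6 in MLPH-CKO, and TNIP2 in C9orf89-CKO. With each library left out in turn, members past the threshold numbered 6 to 10 in MLPH-CKO, 8 to 13 in MAGI2-CKO, 7 to 9 in C9orf89-CKO and 8 to 13 in RHBDD2-CKO against Non-target. Between clones they numbered 5 to 10 for MAGI2-CKO against C9orf89-CKO (5 without C9orf89-CKO replicate 3) and 2 to 7 for MLPH-CKO against C9orf89-CKO (2 or 3 without any 1 library of either clone), and among the other genes of the pathway 19 to 29 in MLPH-CKO against Non-target. For MLPH-CKO against C9orf89-CKO no filter gave 3 members and only the 6 libraries contrasted also gave 3, from 6, and for MLPH-CKO against MAGI2-CKO the 6 libraries gave 3, from 5. Fewer libraries leave fewer degrees of freedom. Depth limits the 6 genes under the filter, which had 0 to 17 fragments per library.

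The replicate numbers do not show that wells were paired: deviations from the group means correlated with a median of 0.0856 over 30 pairs of libraries with the same number (0.00103 to 0.312, 12 over 0.1) and −0.0887 over 60 pairs with different numbers, and 11 of 15 libraries correlated best with their own number, a hint from the data and not the design. With the replicate number as a block, members past the threshold numbered 13 in MLPH-CKO (from 8), 10 in C9orf89-CKO (from 8), 14 in MAGI2-CKO (from 11) and 14 in RHBDD2-CKO (from 11) against Non-target, which is 38.2%, 29.4%, 41.2% and 41.2% beside 38.9%, 35.4%, 44.3% and 43.5% of all genes. Between clones the block gave 8 for MLPH-CKO against MAGI2-CKO (from 5) and 12 for RHBDD2-CKO against C9orf89-CKO (from 7), without the shares of all genes beside them.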
